A study of Sus scrofa with 80 samples.

Results

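PRM1, PRM2 and TNP2 encode small basic proteins of the sperm nucleus, and their transcripts were followed here across tissues and ages of the Göttingen minipig. The 3 genes were taken by the gene names that the array files give their probes, from 23736 genes on the array. They were chosen with earlier results of these data known. During spermiogenesis, the last phase of sperm formation, histones are taken off the DNA of haploid spermatids, transition proteins (TNP1 and TNP2) bind in their place, and protamines (PRM1 and PRM2) then replace the transition proteins and pack the DNA into the dense sperm head. The genes are transcribed in round spermatids after meiosis, and their messenger RNA is stored and translated later, in elongating spermatids. In the pig RefSeq annotation PRM1, PRM2, PRM3 and TNP2 are direct neighbours, between RMI2 and SOCS1, and TNP1 is not among them.

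Total RNA of 9 tissues (testis, ovary, bone marrow, spleen, liver, kidney and, from the brain, cortex, cerebellum and hypothalamus) was measured in Göttingen minipigs, a small breed of domestic pig, on custom Agilent arrays of a single colour, to follow organ development from shortly after birth to adulthood. The animals received no treatment. Both sexes were sampled at 1 week, 4 weeks, 2 months and 4 months, and males alone at 2 years, with 1 sample for each tissue, age and sex, so that there were 5 testis samples, 4 ovary samples and 56 samples of the other 7 tissues up to 4 months, in 28 pairs of male and female. At 2 years each of these 7 tissues was sampled once, the kidney on 8 repeated arrays that were averaged here. The labels do not say which samples came from the same animal. The 2-year male was raised at another site from an early age, with other feed and another pentobarbital product for euthanasia, and the arrays of 2-year samples lay on 2 slides of their own, so age, rearing and slide cannot be told apart at 2 years.

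Values are log2 normalized intensities, and the detection limit of an array is the 95th percentile of its negative control spots, which lay between 2.35 and 3.46 (median 2.96). The software of the scanner also calls each spot well above background or not, and a spot is saturated at an intensity of 65535. PRM1 and PRM2 each had 2 probes and TNP2 had 2 probes on 3 spots. Over the 8 kidney repeats the SD was 0.298 for PRM1, 0.277 for PRM2 and 0.0688 for TNP2, against a median of 0.116 over all genes. The labelled tissues were checked against marker genes. In testis from 2 months on, all 17 measured markers of elongating spermatids were above the limit and 15 of them were above every sample of another tissue. Of the markers of kidney, liver and cerebellum, 3 of 3, 3 of 4 and 2 of 3 were highest in their own tissue in every sample. None of the markers of bone marrow, spleen or hypothalamus separated its tissue from all others in that way, and AVP was not above the limit in every hypothalamus.

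All 3 genes went from a low signal in the testis at 1 and 4 weeks to a very high signal from 2 months on. PRM1, the protamine found in sperm of all mammals, measured 3.19 at 1 week and 2.89 at 4 weeks. It measured 15.99 at 2 months, 15.94 at 4 months and 15.998 at 2 years. In the 3 older testes every PRM1 spot was saturated, and in the 2 younger ones none was well above background (raw intensities of 24 to 31.5). PRM2, the second protamine, which is made as a precursor and trimmed during sperm maturation, measured 2.57, 3.16, 15.99, 15.94 and 15.998 at the same ages. It was likewise saturated on every spot of the 3 older testes and not well above background on any spot of the 2 younger ones. The later levels of the protamines therefore have a lower bound and no order among themselves.

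TNP2, the transition protein encoded beside the protamines, gave a measurable signal at all ages. Its level was 7.11 at 1 week and 6.95 at 4 weeks, then 13.41 at 2 months and 14.52 at 4 months, and 13.34 in the 2-year male. No TNP2 spot was saturated and all of them were well above background, with raw intensities of 212 to 226.5 at 1 week and 28101 to 50840 at 4 months. The older testes did not overlap with the younger ones in any of the 3 genes, which was also the case for 24.1% of all 23722 genes tested.

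**Figure D1:**
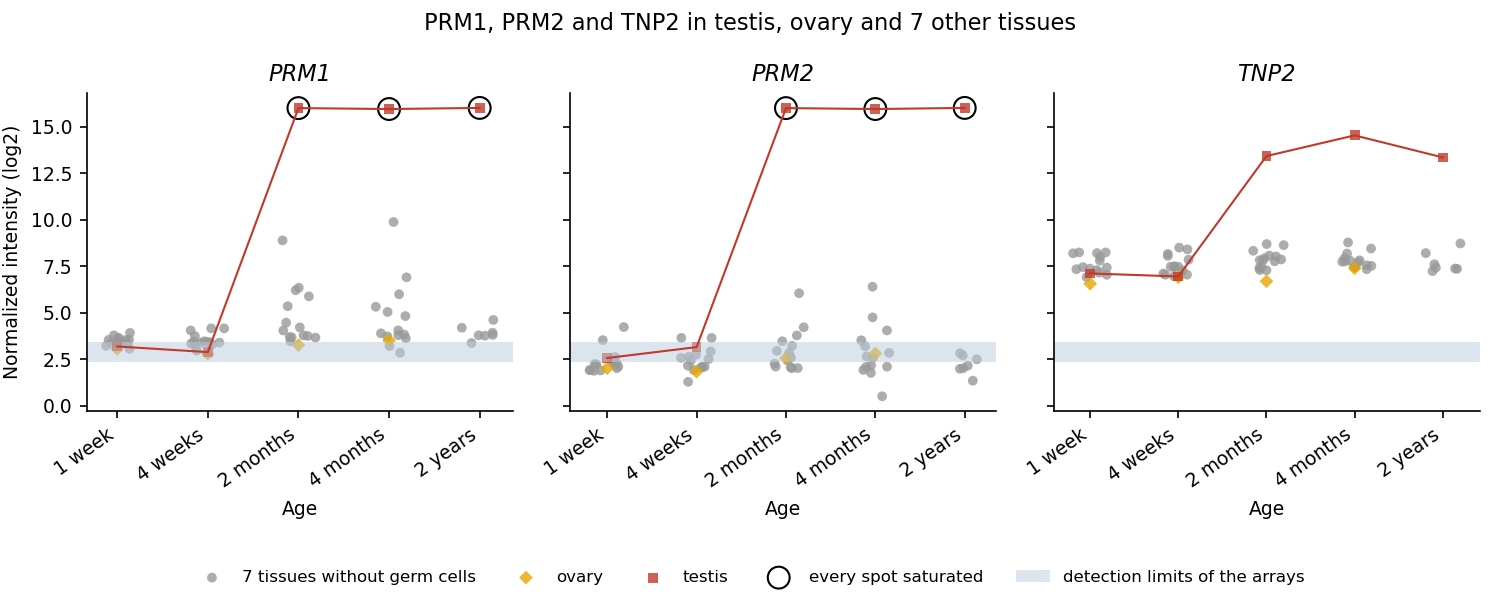
Normalized intensity (log2) of PRM1, PRM2 and TNP2 against age in testis (red squares joined by a line, 1 sample per age), ovary (yellow diamonds) and 7 other tissues (grey points). Black rings mark testis samples in which every spot was saturated, and the blue band spans the detection limits of the arrays. PRM1 and PRM2 rise from about the limit at 4 weeks to saturation at 2 months, and TNP2 rises from 6.95 to 13.41.

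The question of when these genes come on was put to steps between ages. With 1 testis per age there was no replicate of the testis itself, so the limma fit took its spread from the 28 male and female pairs of the other tissues, and its p-values assume that testis varies as they do. From 4 weeks to 2 months all 3 genes rose, against 14.4% of all genes called higher. PRM1 rose at least 8338-fold (adjusted p = 4.4e-07) and PRM2 at least 7288-fold (adjusted p = 2.1e-09), both bounds set by saturation at 2 months and by background at 4 weeks. TNP2 rose 88.3-fold, by 6.46 on the log2 scale (SE 0.26, adjusted p = 7.4e-20). Its 4-week level of 6.95 lay within the range of the samples outside the testis (6.56 to 8.78). How much of that signal was TNP2 transcript was not tested, so the transcript may have risen by more. In bulk tissue, more cells of a type and more RNA per cell cannot be told apart.

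Between 1 and 4 weeks TNP2 differed by -0.16 (adjusted p = 0.92, with 4.65% of all genes called in either direction), and the protamines were not well above background at both ages, so no fold is given for them. From 2 to 4 months TNP2 rose by 1.11 (SE 0.26, 2.16-fold, adjusted p = 0.019), where 0.712% of all genes were called higher and 0.801% lower. From 4 months to 2 years TNP2 fell by 1.18 (SE 0.26, adjusted p = 0.0071), where 0.97% were called lower and 1.8% higher. The rise to 4 months was 0.88 when arrays were scaled to a common median (adjusted p = 0.066), and 1.13 on the first TNP2 probe alone (adjusted p = 0.092). The fall to 2 years compares slides that hold no common age.

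Taken as groups, the 3 older testes were above the 2 younger ones by at least 7629.8-fold for PRM1 and at least 7943-fold for PRM2, and by 6.73 on the log2 scale for TNP2 (SE 0.17, 106-fold, adjusted p = 2.3e-26), where 20.4% of all genes were called higher. Against the mean of the 7 other tissues at the same ages, the older testis was higher by at least 2731-fold for PRM1 (adjusted p = 3.3e-15), by at least 5357-fold for PRM2 (adjusted p = 1.9e-20) and by 5.96 for TNP2 (SE 0.11, 62.1-fold, adjusted p = 5.4e-31). There 26.4% of all genes were called higher. Both TNP2 folds start from a signal that the samples outside the testis share, so the transcript itself may differ by more. Every older testis was above every sample outside the testis in all 3 genes, which held for 10.2% of all genes. The highest level outside the testis was 9.87 for PRM1, 6.40 for PRM2 and 8.78 for TNP2.

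The younger testis was not called above tissues without germ cells in any of the 3 genes. TNP2 was lower there than in the 7 other tissues by 0.57 (SE 0.14, adjusted p = 0.00072), with 22.8% of all genes called lower. PRM1 averaged 3.04 in the 2 younger testes and 3.52 in the other tissues at these ages (SE 0.94, adjusted p = 0.71), and PRM2 was not well above background in either. This SE pools pairs of all ages, and PRM1 differences between male and female had an SD of 2.37 in older and 0.31 in young pairs. The p-value therefore does not measure the spread at these ages alone. Compared with the ovary at 1 and 4 weeks, TNP2 in testis differed by 0.30 (SE 0.19, adjusted p = 0.27), where 13% of all genes were called higher. In the ovary PRM1 measured 3.06, 2.79, 3.26 and 3.51 from 1 week to 4 months, PRM2 measured 2.02, 1.84, 2.57 and 2.82, and TNP2 measured 6.56, 6.91, 6.69 and 7.40. No ovary spot of a protamine was well above background.

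The other nuclear proteins of the spermatid fell into those that came on with PRM1, PRM2 and TNP2 and those that were already up at 4 weeks. Of 8 measured genes on a list of sperm nuclear proteins and testis histones (10 listed), 6 rose from 4 weeks to 2 months and none fell, with a median log2 change of 1.57, against -0.21 over all genes, of which 22.5% fell. TNP1, the main transition protein, measured 3.14, 3.07, 15.99, 15.94 and 15.998 at the 5 ages and rose at least 7753-fold (adjusted p = 1.4e-11). PRM3, a gene of the protamine cluster whose product is acidic, measured 3.91, 3.80, 15.31, 15.66 and 15.36 and rose at least 2924-fold (adjusted p = 4.7e-18). H1FNT, a linker histone of the spermatid head, measured 2.18, 2.11, 9.66, 10.10 and 9.60 and rose at least 103-fold (adjusted p = 3.9e-17). These 3 genes were not well above background at 4 weeks.

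The histones of spermatocytes moved earlier. HIST1H2BA, a testis H2B that enters chromatin before the transition proteins, measured 3.07 at 1 week, 8.21 at 4 weeks and 10.15 at 2 months. It rose in both steps, 35.3-fold (adjusted p = 6.2e-11) and then 3.85-fold (adjusted p = 0.00023). HIST1H2AA, a testis H2A, measured 2.45, 5.40 and 6.61 at these ages and also rose in both. HIST1H1T, the testis linker histone of meiosis, rose from 5.08 to 8.56 in the first step (adjusted p = 1e-07) and measured 9.22 at 2 months (adjusted p = 0.20). H2AFB1, a short histone H2A, was high throughout, at 13.21, 12.84 and 13.80, and its rise at 2 months (adjusted p = 0.028) was not called after median scaling (adjusted p = 0.16) or from the processed intensities (adjusted p = 0.079). H2BFWT was not well above background at any age.

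Genes that act before or around the exchange of histones for protamines were taken as lists. Of 16 measured genes of histone removal and nuclear condensation, 6 rose and 3 fell from 4 weeks to 2 months (median 0.51), where 14.4% of all genes rose and 22.5% fell. The rise of PPP1CC, a protein phosphatase and 1 of the 6, was not called after median scaling (adjusted p = 0.17). PHF7, a ubiquitin ligase for histone H2A in spermatids, measured 4.87, 9.86, 13.71, 14.06 and 13.64 and rose 14.5-fold in that step (adjusted p = 2.2e-09) after rising 31.8-fold in the step before (adjusted p = 1.4e-10). TSSK6, a kinase of spermatids needed for head condensation, rose at least 6.44-fold to 5.65 (adjusted p = 1.4e-12). NUTM1, which promotes histone acetylation in spermatids, rose 4.33-fold to 10.58 (adjusted p = 4.5e-06). PYGO2, a reader of histone methylation, went the other way and fell 2.66-fold, from 12.10 to 10.69 (adjusted p = 7.9e-06).

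Regulators of spermatid transcripts were counted in the same way. Of 10 measured regulators of spermatid transcription, 7 rose and 1 fell in the same step (median 1.68), among them ZMYND15 (10.5-fold, adjusted p = 4.1e-05), GTF2A1L, a testis form of a general transcription factor (6.94-fold, adjusted p = 1.3e-07), RFX4 (5.84-fold, adjusted p = 4.7e-06) and MAEL (4.52-fold, adjusted p = 8.7e-06). Of 14 measured regulators of stored messenger RNA, 9 rose and 2 fell (median 1.44), against the same 14.4% and 22.5% of all genes. The fall of PAIP2, 1 of the 2, was not called after median scaling (adjusted p = 0.11) or from the processed intensities (adjusted p = 0.13). YBX2, which binds and stores protamine transcripts, measured 7.59, 10.93, 15.10, 15.94 and 15.12, rose 18-fold (adjusted p = 2.8e-09) and was saturated at 4 months. YBX3 rose 10.1-fold (adjusted p = 6.6e-10), TDRD7 rose 5.14-fold (adjusted p = 2.6e-06) and PAIP2B, a repressor of translation, rose at least 4.29-fold (adjusted p = 0.00042).

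Genes that lie near the protamine cluster were counted over the same step. Of 7 measured neighbours 1 rose, 3 fell and 3 did not pass the test (median -0.84, against -0.21 over all genes, of which 22.5% fell). SNN fell 3.84-fold, from 9.51 to 7.57 (adjusted p = 1.1e-05). SOCS1, the next gene after TNP2 and an inhibitor of cytokine signalling, fell 3.41-fold, from 7.58 to 5.81 (adjusted p = 0.00053). TXNDC11 fell by 0.84 (adjusted p = 0.045), a call lost under 3 of 4 other treatments of the intensities. CLEC16A was the neighbour that rose, 2.13-fold from 4.84 to 5.93 (adjusted p = 0.00017). RMI2, the next gene on the other side, and LITAF were not well above background at any age, and DEXI differed by -0.35 (adjusted p = 0.41).

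Markers of germ cell stages were measured in the same 5 testes. Spermatocyte markers rose in the first step, 7 of 11 measured from 1 to 4 weeks (median 2.79), where 3.02% of all genes rose, among them LDHC, a lactate dehydrogenase of germ cells (8.34-fold, adjusted p = 0.00011). Some round spermatid markers were also up by 4 weeks. SPAG6 rose by 2.83 and ZPBP2 by 2.46 from 1 to 4 weeks, each a call lost with another treatment of the intensities. ACR went from 3.05, not well above background, to 6.44. From 4 weeks to 2 months 10 of 13 round spermatid markers rose and 1 fell (median 3.69). Of 17 elongating spermatid markers 14 rose and none fell (median 6.49). In that step 14.4% of all genes rose and 22.5% fell. Acrosome genes of the round spermatid list included ACR (127-fold, adjusted p = 1.6e-10) and ACRV1 (185-fold, adjusted p = 2.6e-21). SMCP, a protein of the sperm mitochondrial sheath, measured 2.24, 2.17, 14.78, 14.84 and 14.85 and rose at least 3607-fold (adjusted p = 2.5e-15), and TSSK2 rose at least 2308-fold (adjusted p = 3.1e-17).

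Markers of Sertoli and Leydig cells fell in the same step, where 22.5% of all genes fell. Of 10 Sertoli cell markers 9 fell and none rose (median -1.79), with AMH, the hormone of immature Sertoli cells, at 13.63, 11.09, 7.47, 7.34 and 7.05. Of 6 Leydig cell markers 5 fell (median -1.55), among them LHCGR, the receptor for luteinizing hormone, by 2.63 (adjusted p = 7.9e-06). The fall of CYP17A1, 1 of the 5, was not called with an offset of 50 (adjusted p = 0.17). Of 9 spermatogonium markers 1 fell, DMRT1, by 1.16 (adjusted p = 0.016), and 8 did not pass the test. The part of a changed cell composition in the rise of PRM1, PRM2 and TNP2 was not tested. After 2 months few listed genes changed. Of all genes 0.712% rose and 0.801% fell to 4 months, and 1.8% rose and 0.97% fell to 2 years. At 2 years age, rearing and slide cannot be told apart. Of the 3 round spermatid markers that rose to 2 years, IZUMO1 was not called with processed intensities or in the deposited log2 table. From 2 to 4 months, when TNP2 rose, 1 round and 1 elongating spermatid marker fell, the first being ACRV1 (by 1.57, adjusted p = 0.0006), and to 2 years, when TNP2 fell, 3 round spermatid markers rose, among them ACRV1 (by 1.39, adjusted p = 0.0016) and SPACA4 (by 1.58, adjusted p = 0.0085).

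**Figure D2:**
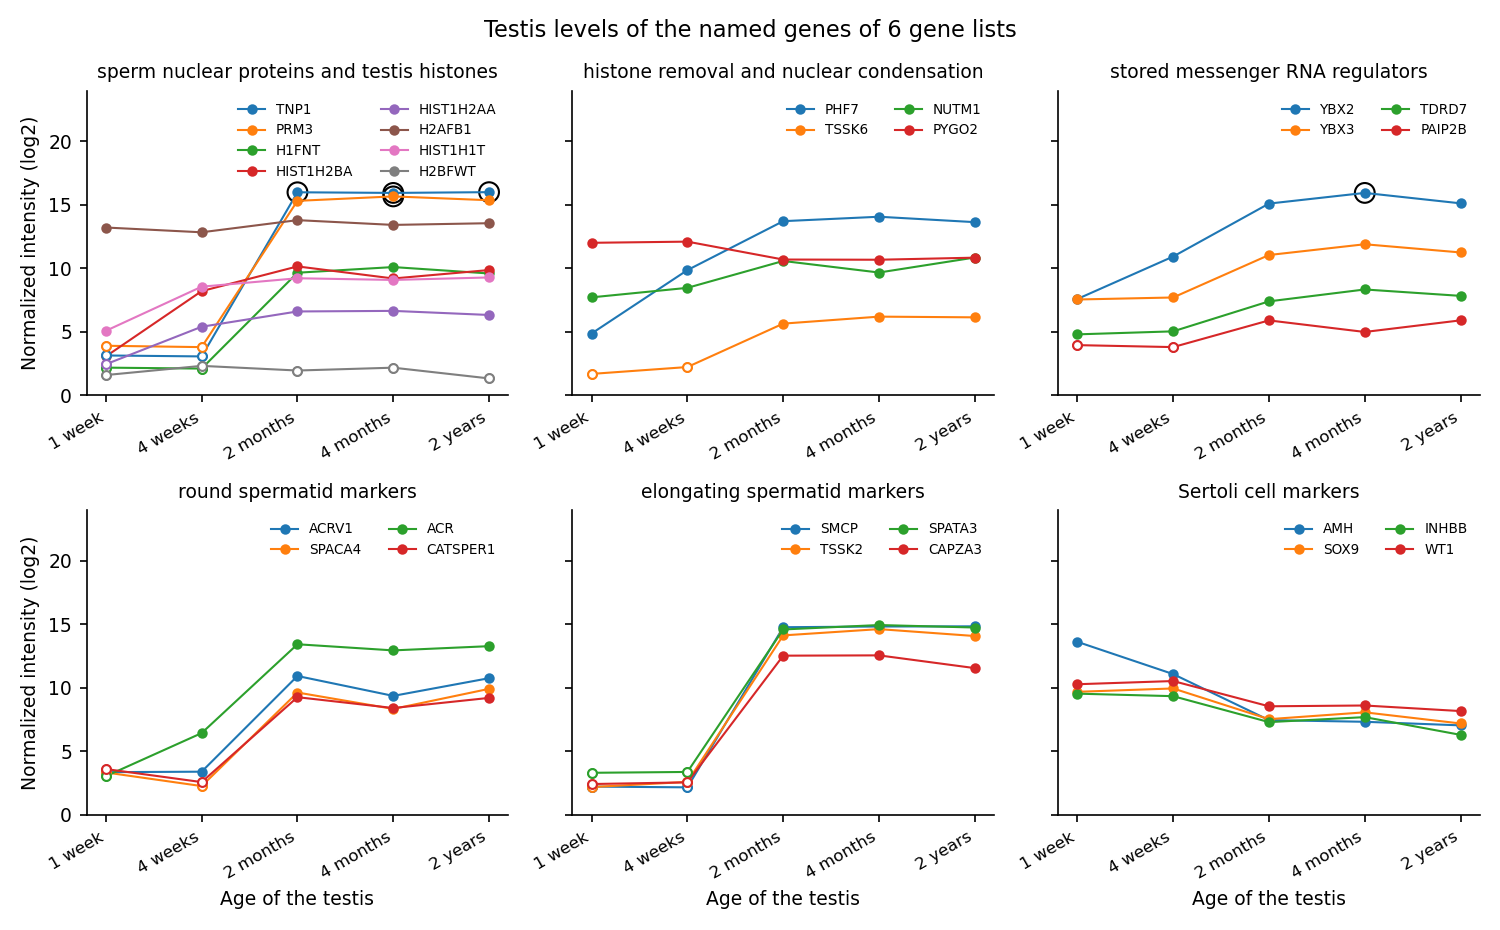
Normalized intensity (log2) of the named genes of 6 lists in the testis at 5 ages, 1 sample per age. Open points are not well above background and black rings mark saturated genes. TNP1, PRM3 and SMCP step up between 4 weeks and 2 months, HIST1H2BA and HIST1H1T are already up at 4 weeks, and AMH falls from 13.63 to 7.05.

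Outside the testis the 3 genes gave different low signals over 67 samples. PRM1 ranged from 2.79 to 9.87 with a median of 3.70. It was above the detection limit in 66 of 67 samples, in 58 with the limit at the 99th percentile, and had a spot well above background in 18. PRM2 ranged from 0.52 to 6.40 with a median of 2.35, was above the limit in 14 samples and had a spot well above background in 2. TNP2 ranged from 6.56 to 8.78 with a median of 7.55, and every spot was well above background in all 67 samples.

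PRM1 signals clearly above this floor were seen from 2 months on and mostly in males. In the 28 samples of the 7 tissues at 1 and 4 weeks PRM1 lay between 2.97 and 4.16 (median 3.45). In the 14 female samples at 2 and 4 months it lay between 3.48 and 5.32 (median 3.77), and in the 14 male samples between 2.85 and 9.87 (median 5.62). The highest values were 9.87 in the cortex of the 4-month male and 8.88 in the kidney of the 2-month male, followed by 6.90 in the cerebellum of the 4-month male, 6.34 in the hypothalamus of the 2-month male and 6.21 in the spleen of the 2-month male. Raw intensities in the first of these were 1010 to 1153, and both PRM1 probes gave it, at 9.77 and 9.97. Among females the highest were spleen (5.32) and hypothalamus (5.04), both at 4 months. In the 7 samples of the 2-year male PRM1 lay between 3.37 and 4.62.

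At 2 months all 7 male samples lay above all 7 female samples for PRM1. The males measured 4.21 in cortex, 4.47 in bone marrow, 5.35 in liver, 5.88 in cerebellum, 6.21 in spleen, 6.34 in hypothalamus and 8.88 in kidney. The females measured 3.48 to 4.05 (median 3.70), the highest being bone marrow. This lack of overlap was shared by 11 genes, 0.0464% of those tested. The others with a symbol in the files were HEXIM1, LACE1, EIF1AY and ORAOV1. For PRM2 at 2 months 4 of 7 males and 1 of 7 females were above the detection limit, and a spot was well above background in the kidney of the male alone (6.05). The groups overlapped for PRM2, with the lowest male at 2.27 and the highest female at 3.47, and for TNP2 as well. In bone marrow, cortex and liver PRM2 was under the limit in both animals, so that no difference is read there. If the 7 male samples of an age came from a single animal, which the labels do not say, they are not independent, and the difference would then be between animals as much as between sexes.

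At 4 months PRM1 was higher in the male in 4 of 7 pairs, and the differences ran from -2.11 in spleen to 6.14 in cortex. In the 14 pairs at 1 and 4 weeks it was higher in 7, with differences of -0.61 to 0.53. Over the 14 older pairs the mean difference was 1.51 ± 2.37 (SD, n = 14). For TNP1 5 of 7 males at 2 months and no female were above the detection limit, and a spot was well above background in 1 of these males. TNP2 was higher in the male in 8 of 14 older pairs, with differences of -0.66 to 0.40. A spermatid gene that differed earlier was OAZ3, an antizyme of elongating spermatids. At 4 weeks it measured 5.59 to 6.65 in the males and 2.85 to 4.53 in the females, higher in the male in 7 of 7 tissues by 2.11 to 2.79. The gene was named after its values were seen, and the share of all genes without overlap at 4 weeks was not counted. OAZ3 was the 1 of 17 elongating spermatid markers called in the test of sex over all ages, where 0.261% of all genes were called in either direction. The call was lost with an offset of 50 (adjusted p = 0.053).

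**Figure D3:**
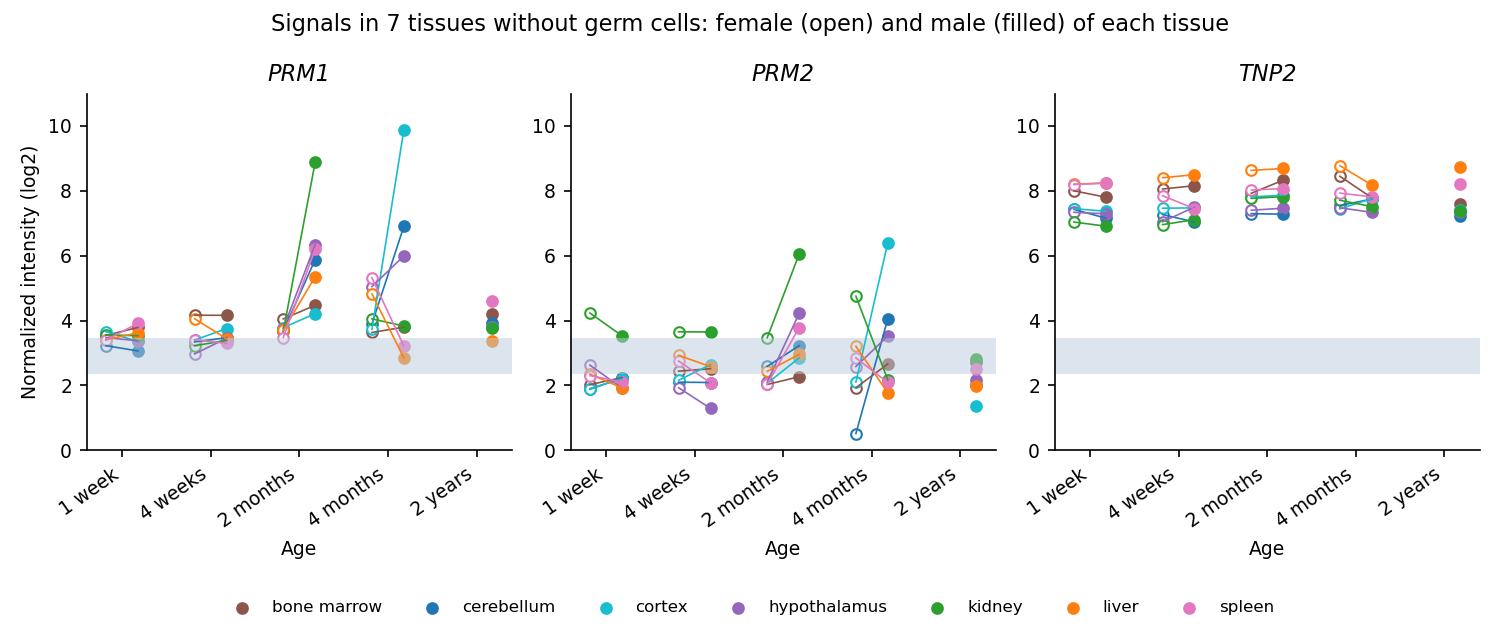
Normalized intensity (log2) of the 3 genes in 7 tissues other than testis and ovary at 5 ages, with the female (open) and the male (filled) of each tissue joined by a line and 1 sample per point. The blue band spans the detection limits. At 2 months PRM1 in males lies above the band and above the females in 7 of 7 tissues, with kidney at 8.88, and male cortex reaches 9.87 at 4 months, while TNP2 stays between 6.91 and 8.78.

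Age, sex and their interplay were then tested over these 56 samples. The samples of an age and sex may come from a single animal, so p-values measure the spread between these samples only. PRM1 averaged 5.56 in males and 4.04 in females at 2 and 4 months, against 3.54 and 3.49 at 1 and 4 weeks. Samples at 2 and 4 months were above those at 1 and 4 weeks by 1.28 for PRM1 (SE 0.32, adjusted p = 0.0024) and by 0.25 for TNP2 (SE 0.059, adjusted p = 0.0014), where 13.1% of all genes were called higher. For PRM2 the difference was 0.51 (SE 0.23, adjusted p = 0.10). The PRM1 difference was 0.96 without the cortex pair at 4 months and the kidney pair at 2 months (adjusted p = 0.0013), a choice made after seeing the data, and 0.54 with an offset of 50 added to the intensities (adjusted p = 0.025). Within the scan days it was 1.11, 1.09, 1.86 and 1.41 on 4 of 5 days and 0.21 on the other day, which held 2 older samples. For TNP2 it was 0.16, 0.45, -0.02, 0.25 and 0.54 on the 5 days in the same order, with the opposite sign on 1 day, and the tissues compared were not the same on each day.

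Sex alone gave no call among the 3 genes over all ages in limma, and PRM1 alone of them had an unadjusted p below 0.05. The male minus female difference was 0.79 for PRM1 (SE 0.32, adjusted p = 0.44), 0.40 for PRM2 (adjusted p = 0.69) and -0.04 for TNP2 (adjusted p = 0.91), and 0.261% of all genes were called in either direction. Within scan days the older males exceeded the older females in PRM1 by 1.25, 2.14, 2.26 and 1.38 on 4 days and differed by -1.20 on the other, which held 1 older sample of each sex. A term for a sex difference that changes with age, added after seeing the data, was 1.46 for PRM1 (SE 0.59, adjusted p = 0.30), 1.12 for PRM2 (adjusted p = 0.33) and -0.01 for TNP2 (adjusted p = 0.99), where 1.07% of all genes were called. It rests on the age: without the 4-month pairs it was 2.12 for PRM1 (adjusted p = 0.0032) and 1.39 for PRM2 (adjusted p = 0.0031), and without the 2-month pairs it was 0.79 for PRM1 (adjusted p = 0.76). As it was known that the groups did not overlap at 2 months, the calls without the 4-month pairs are a description.

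**Figure D4:**
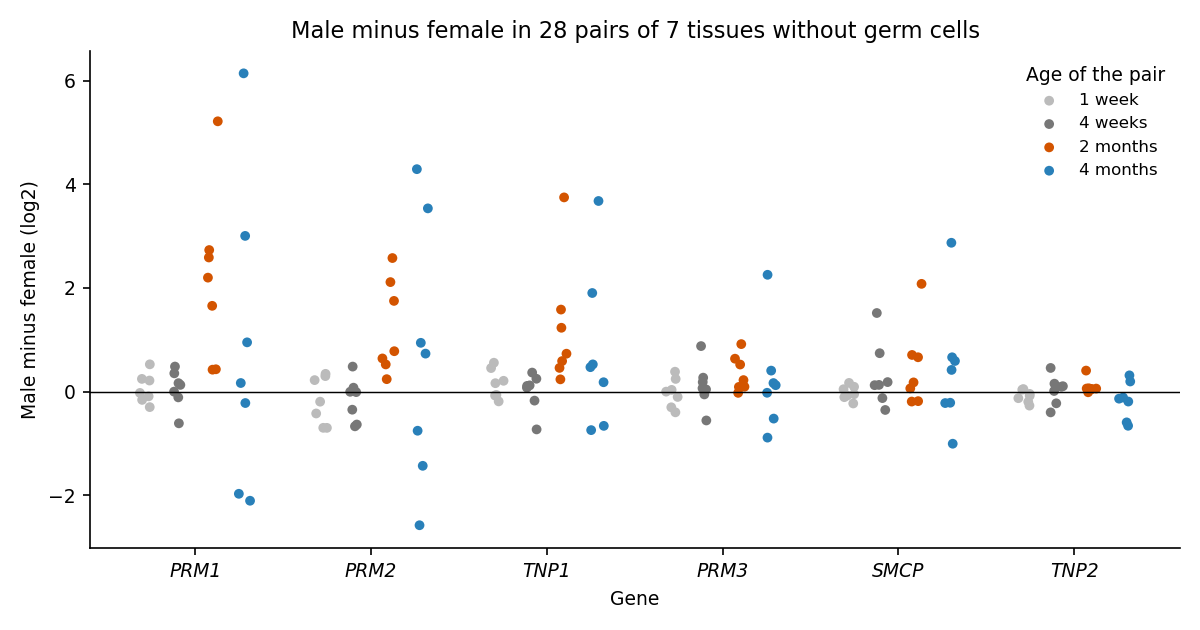
Male minus female difference (log2) in the 28 pairs of 7 tissues for 6 spermatid genes, each point 1 pair and coloured by age. For PRM1 the pairs at 1 and 4 weeks lie between -0.61 and 0.53, those at 2 months are above 0 in 7 of 7 tissues and those at 4 months run from -2.11 to 6.14. TNP2 stays between -0.66 and 0.46, SMCP in bone marrow is 1.52 higher in the male at 4 weeks, and most PRM2 and TNP1 values behind the points are under the detection limit.

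The other spermatid transcripts in the samples with raised PRM1 were set beside it. In the cortex of the 4-month male PRM2 measured 6.40, TNP1 6.68, PRM3 5.49 and SMCP 4.96, and TNP2 measured 7.76, within the range of other cortex samples (7.37 to 7.86). In the kidney of the 2-month male PRM2 measured 6.05, TNP1 6.25 and SMCP 4.40. Some other spermatid genes, named after their values were seen, were low in the same samples. In the cortex ODF1, of the sperm tail, measured 3.71, ACRV1 3.53, GAPDHS 2.55 and SPEM1 1.82, the last 2 below the detection limit of 2.93. In the kidney ODF1 measured 3.82, which was 0.32 below the female, ACRV1 3.61, GAPDHS 2.72 and SPEM1 1.37. In the 4-month testis, where PRM1 was saturated, these genes measured 6.47, 9.37, 9.51 and 9.03 in that order. In the 2-month testis they measured 6.28, 10.94, 9.03 and 8.58. SMCP measured 14.84 and 14.78 in these testes, far above them, so nothing about the source is read from their low signals. AKAP4 and OAZ3 were raised in the cortex, at 3.64 and 5.66 against 1.83 and 3.77 in the female. Of 17 elongating spermatid markers 12 were higher in the cortex than in the female, 6 of them by more than 1. In the kidney 13 were higher, 2 of them by more than 1. In these 2 samples 15 of 17 elongating spermatid markers were above the detection limit, against 8 to 13 in the older female and 6 to 14 in the young female samples. Of 13 round spermatid markers 8 and 9 were above it, against 5 to 9 in the older female samples. The summed intensity of the elongating spermatid markers was 311 to 611 in the older male samples and 284 to 726 in the older female samples. In the older testis it was 138069 to 159919. Outside the testis the sum is weighted to markers with signal there, such as AKAP3 (up to 10.21) and PHOSPHO1 (up to 8.01). A rise of dimmer markers such as SMCP therefore cannot be read from it. Leydig sums were 68.5 to 106 in older males and 69.8 to 103 in older females. In the older testis they were 66628 to 72988. INSL3, the Leydig cell hormone, measured 3.21 and 3.30 in the cortex and kidney named, against 15.94 and 15.99 in the testis of those ages. These testis values equal those of saturated PRM1 on the same arrays, so they and the Leydig sums there are lower bounds. Sertoli cell sums were 460 to 1635 in older males, 407 to 1578 in older females and 2120 to 2873 in the older testis. AMH measured 7.41 in that cortex and 8.33 in that kidney, against 7.34 and 7.47 in the testis. The Sertoli cell markers were too near their testis level for a shift to be read. The part of testis RNA in these signals was not tested.

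On 8 of the 11 slides the highest PRM1 value outside the testis was 5.35 or more. The slide of the 4-month cortex and that of the 2-month kidney held no older testis array. The 2 older male arrays that shared a slide with an older testis had PRM1 at 2.85 (liver, 4 months) and 6.90 (cerebellum, 4 months), and the other 12 ranged from 3.21 to 9.87. Over the 28 samples at 2 and 4 months PRM1 correlated with PRM2 at r = 0.845 (rho = 0.760) and with TNP1 at r = 0.937 (rho = 0.745), and with TNP2 at r = -0.109 (rho = -0.137). Over the 28 samples at 1 and 4 weeks r of PRM1 was 0.096 with PRM2 and 0.565 with TNP2 (rho = 0.508). These values are descriptive, as samples share slides, may share animals, and share the low signals near background.

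Between tissues the low signals had different orders. PRM1 was not called among the 7 tissues (moderated F = 0.23, adjusted p = 0.97), and its medians of 3.44 (spleen) to 3.92 (bone marrow) were within the spread of each tissue. At 1 and 4 weeks alone F was 3.07 (adjusted p = 0.027), a choice made after seeing the data. Of all genes 92.4% were called in this test. PRM2 differed (F = 3.36, adjusted p = 0.0082), with kidney highest, a call lost with processed intensities (adjusted p = 0.094), an offset of 50 (adjusted p = 0.071) or the deposited table (adjusted p = 0.061). It measured 2.17 to 6.05 in kidney (median 3.65), above the limit in 7 of 8 samples, and the medians of the other 6 tissues were 2.16 to 2.51. With the kidney of the 2-month male set aside, every kidney PRM2 spot was below the call of well above background. PRM3, the next gene to PRM2, was also highest in kidney, at 4.44 to 5.70 (median 5.26), with medians of 3.20 to 3.64 elsewhere (F = 22.6, adjusted p = 1.8e-12).

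TNP2 differed most clearly (F = 30.7, adjusted p = 7.4e-15). It measured 8.18 to 8.78 in liver, 7.79 to 8.45 in bone marrow, 7.45 to 8.24 in spleen, 7.37 to 7.86 in cortex, 7.04 to 7.50 in hypothalamus, 6.91 to 7.82 in kidney and 7.04 to 7.74 in cerebellum. The ranges of tissues next to each other in that order overlapped. The 2 probes did not agree in liver, where the first measured 8.80 to 9.81 and the second 7.44 to 7.88, while in the other 6 tissues the second probe differed from the first by -0.75 to 0.22. On the second probe the median of liver (7.59) was below those of bone marrow (7.92) and spleen (7.90), so the first place of liver rests on the first probe. In the older testis the second probe was the higher one, by 0.99 to 1.29, and from 4 weeks to 2 months the first rose by 5.89 and the second by 7.04.

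**Figure D5:**
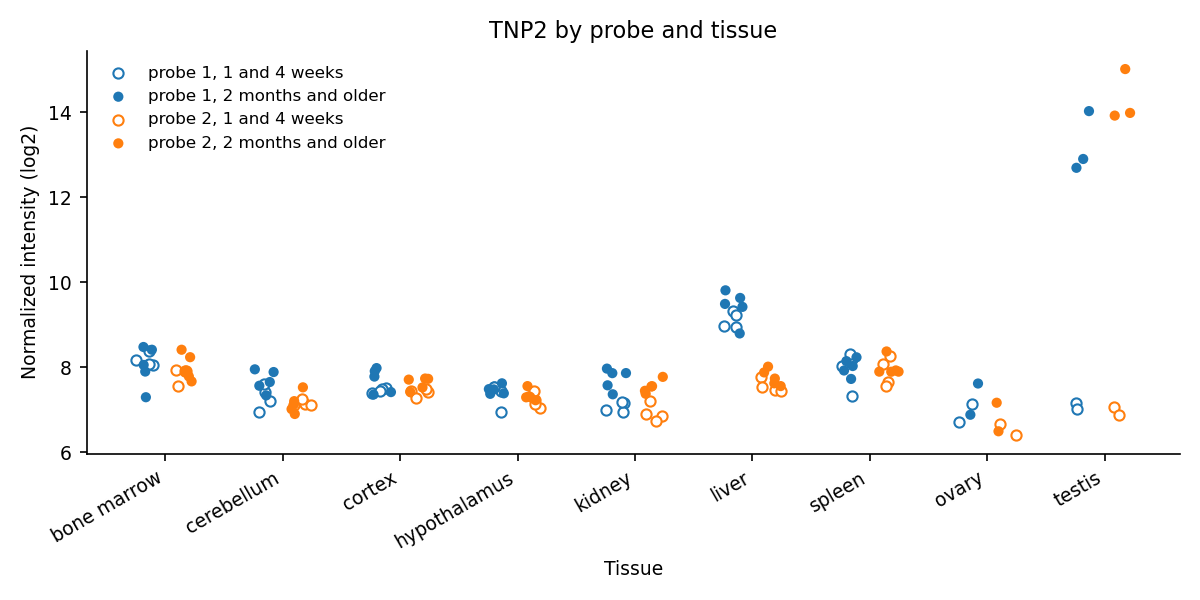
Normalized intensity (log2) of TNP2 on its first (blue) and second (orange) probe by tissue, with samples at 1 and 4 weeks open and later ones filled. In liver up to 4 months the first probe measures 8.80 to 9.81 and the second 7.44 to 7.88, and in testis from 2 months on the second lies above the first.

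Genes whose symbol the array files give were ranked by Pearson's r with each of the 3 over the 72 samples, a measure in which the 3 older testes weigh heavily. Genes named through RefSeq were not ranked, but r is given for those on the lists. For PRM1 the ranked genes were PRM2 (r = 0.950), HMGB4 (0.927), TSSK2 (0.917), C7orf34 (0.917) and LELP1 (0.915), while r was 0.964 with TNP1 and 0.938 with SMCP. For PRM2 they were C7orf34 (0.962), CCIN (0.960), HMGB4 (0.960), LELP1 (0.958) and TSSK2 (0.958), while r was 0.973 with PRM3 and 0.972 with TNP1. For TNP2 they were BANF2 (0.954), C11orf94 (0.954), C14orf166B (0.950), C20orf165 (0.949) and CYLC1 (0.944), and r with PRM1 was 0.856. Over the 67 samples outside the testis, a choice made after seeing the data, the ranked genes for PRM1 were PRM2 (0.749), HMGB4 (0.674), LELP1 (0.536), TSSK2 (0.519) and CRISP2 (0.511), while r was 0.880 with TNP1 and 0.684 with SMCP. TNP2 had VKORC1L1 (0.915), ATF5 (0.911), SRRM5 (0.897), GPR17 (0.894) and HAND1 (0.872), and its r with PRM1 there was 0.183.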

How the data were processed

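Total RNA of 72 tissue samples was measured on 80 arrays of 8 per slide. The authors deposited, for each array, the scanner output of Agilent Feature Extraction 11.5.1.1 with the raw intensity of 62976 spots, not normalized, and a table of log2 values. The study's methods name Robust Multi-Array Analysis, with correction of the background and quantile normalization, before the log2 step. The median of that deposited log2 table was 4.57 in every column, and it correlated with the processed intensities at r = 0.991 to 0.998. It served as an alternative. No column lacked a sample.

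Median spot intensities were background corrected (normexp, offset 0), quantile normalized with 308 negative control spots, put on the log2 scale and averaged over spots and then probes of a gene (limma 3.58.1, R 4.3.3). Models were fitted to 23722 genes with Benjamini-Hochberg adjustment at 0.05, and the fits were tested on simulated data. Testis comparisons used 1 mean per tissue and age over 72 samples. Age was tested with tissue, sex with the pair, and tissue with age as further terms. The number of arrays limits the precision. The 8 kidney repeats were averaged and the renal pelvis array was left out. Labels give samples, not animals, so p-values measure the spread between these samples only. A gene not well above background, or saturated, on every array of a group has only a bound there: "at least" folds set the brighter mean against, per array, the higher of the gene's own value and the lowest signal among probes well above background. Of 10822 genes named by an accession 3022 had a symbol in the RefSeq table (Sscrofa11.1), TNP1, PRM3 and SMCP among them. Older symbols of the array were kept.

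The 3 genes and all gene lists were chosen with earlier results of these data known. Named beside the 3 genes were up to 4 genes of each list with the largest change from 4 weeks to 2 months, all sperm nuclear proteins, all neighbours of the protamine cluster, and the 5 genes with a symbol most correlated with each. HIST1H2AA and similar names are those of the array. INSL3, OAZ3, PPP1CC, PAIP2, CRISP2, ODF1, GAPDHS, SPEM1, AKAP4 and IZUMO1 were named after their values were seen. So were the genes that did not overlap at 2 months. Alternatives were the scanner's processed intensity scaled to the 75th percentile, the deposited log2 table, median scaling, 50 as offset, the median of probes, a filter on dim genes, slide as a random block, tissue and sex as a block, each testis left out, and testis arrays only. Leaving out the pairs of an age or 2 single pairs, the young ages alone, single probes and the 67 samples outside the testis were alternatives chosen after seeing the data. Probe sequences, promoters and proteins were not used here.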

Additional observations from a re-analysis of the deposited data

Results flagged for a closer look

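A sample was singled out when its gap to the next one was large against the range of its group. The 27 groups were, for each of the 3 genes, the 8 repeats of the 2-year kidney and the samples up to 4 months of each tissue but testis (4 for ovary and 8 for each of the other 7). Chance alone does this in about 1 of 20 groups, and 5 of 27 groups had such a sample. PRM1 in the cortex of the 4-month male was 9.87, with the next cortex sample at 4.21 and the lowest at 3.36. PRM1 in the kidney of the 2-month male was 8.88, with the next kidney sample at 4.05. PRM2 stood apart in the same cortex sample, at 6.40 with the next at 2.85, and in the spleen of the 2-month male, at 3.78 with the next at 2.85. TNP2 was low in the hypothalamus of the 4-week female, at 7.04 with the next at 7.29 and the highest at 7.50.

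A renal pelvis sample of the 2-year male entered no comparison. Its PRM2 level of 4.30 was above the detection limit of that array (2.84) and above the 8 kidney repeats of that age (2.59 to 3.30). Of its 2 PRM2 spots 1 was well above background, with raw intensities of 21 and 54. PRM1 measured 4.29 and TNP2 measured 6.82 there.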

How the results depend on the processing

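Of 312 values of 27 results under the alternatives, 297 kept their direction and their side of the threshold, and 19 results kept them under every alternative run. The rise of TNP2 from 2 to 4 months was 0.88 under median scaling (adjusted p = 0.066) and 1.13 on its first probe (adjusted p = 0.092). The F of PRM2 among tissues was 1.94 with processed intensities (adjusted p = 0.094), 2.15 with an offset of 50 (adjusted p = 0.071) and 2.25 in the deposited table (adjusted p = 0.061), and F of PRM1 was 3.07 at the young ages (adjusted p = 0.027). Without the 4-month pairs the age difference of PRM2 was 0.57 (adjusted p = 0.029), and the change of the sex difference with age was 2.12 for PRM1 and 1.39 for PRM2. Sex differences of TNP2, none of them called, turned sign: to 0.0096 without the 4-month pairs and 0.014 on the second probe, and, for their change with age, to 0.0082 with median scaling, 0.019 with slide as a block, 0.13 without the 4-month pairs and 0.013 on the first probe. The causes were not tested.

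With tissue and sex as a replicate block the age difference was 1.28 for PRM1 (adjusted p = 0.0022), 0.51 for PRM2 (adjusted p = 0.092) and 0.25 for TNP2 (adjusted p = 0.0031), and without the pairing the sex difference of PRM1 was 0.79, so neither changed a call. Leaving out each testis in turn, TNP2 ranged from 6.35 to 6.94 for older against younger testis, from 5.58 to 6.17 for older testis against the 7 tissues, from -0.64 to -0.51 for younger testis against the 7 tissues and from 0.04 to 0.55 against ovary. For PRM1 and PRM2 in testis only bounds exist, so their values under the alternatives show no stability.

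Counts over all genes moved more than those of the 3 genes. From 2 to 4 months 359 genes were called, 599 with processed intensities, 1606 with an offset of 50 and 792 in the deposited table. From 4 months to 2 years 658 were called, 1990 with the offset and 1202 in the deposited table. Without the 4-week testis the calls fell from 10620 to 6503 against the 7 tissues and from 6238 to 3660 against ovary. Age called 5735 genes, 3240 without the 2-month pairs. Sex called 62, 27 without pairing and 39 without the pairs of 4-month cortex and 2-month kidney, and the change of sex with age called 254, 163 without the 2-month and 552 without the 4-month pairs. The share of calls that were higher moved from 47.1% to 61.7% (2 to 4 months, offset), from 65.0% to 54.6% with processed intensities and 42.2% with the offset (to 2 years), and from 49.5% to 65.8% (testis against ovary, median scaling). The median change of all genes from 4 weeks to 2 months was -0.21, and -0.03 with processed intensities or -0.04 with the offset. No listed gene called in the testis steps, or in age or sex, turned sign under another scaling. Saturation limits PRM1 and PRM2 above, and background limits them below.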
